A study of Mus musculus with 23 samples.

Results

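CD4+ T cells of the mouse that did not carry CD25 on their surface were compared by whether they carried CD49f. CD49f is the integrin alpha-6 chain, encoded by Itga6, and CD25 is the high-affinity chain for interleukin 2, encoded by Il2ra. The comparison was chosen by the sample titles: 7 arrays labelled CD25-CD49f+ T cells were set against 7 arrays labelled CD25-CD49f- T cells, 14 of the 23 arrays of the study. The remaining arrays hold CD25+CD49f+ cells (4 arrays) and CD25+CD49f- cells (5 arrays), and the study's title describes a CD49f-marked subset of CD4+ regulatory T cells with strong suppressive activity. All arrays are labelled as biological replicates from females, with total RNA from T cells. Strain, age, tissue, treatment and any pooling of animals are not given in the sources used here, so the p-values below measure the spread between these samples. Values are RMA signals on a log2 scale, and a difference is the mean of CD25-CD49f+ cells minus the mean of CD25-CD49f- cells. The standard error given with it is the moderated value from a limma fit of all 23 arrays, which pools the spread within the 4 groups.

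CD4+ T cells without CD25 are mostly conventional T cells. Naive cells among them circulate through lymphoid tissue with little transcription of cytokine genes, while cells that have met antigen keep adhesion and cytokine genes open and divide again on contact. Regulatory T cells, which restrain other T cells and depend on the transcription factor Foxp3, mostly carry CD25, although a part of them does not. CD49f pairs with the integrin beta-1 or beta-4 chain to form receptors for laminins, proteins of the basement membrane.

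The labelled cell type was checked first. The T cell receptor chains Cd3d, Cd3e and Cd3g and the coreceptor Cd4 differed by -0.10, -0.03, 0.03 and -0.15 on the log2 scale, and none passed the test. Cd3d read between 11.91 and 12.19 in CD25-CD49f- cells and between 11.87 and 12.02 in CD25-CD49f+ cells. Both populations carried these T cell transcripts at nearly the same high level. Over all genes, 4 arrays stand apart from the others of their group: CD25-CD49f- replicates 1 and 7, CD25-CD49f+ replicate 1 and CD25+CD49f- replicate 5. Although every label says female, Y-linked transcripts were read on 3 of 7 arrays in each CD25- population. Of the 218 named genes with a call, 6 lost it without the 4 arrays, 42 among the arrays that lacked Y-linked transcripts and 55 among those with them and without Xist. Both subsets hold fewer arrays. CD25-CD49f- replicate 1 also had the widest gap between the 3′ and 5′ probe sets of Gapdh and Actb in its group (3.02 and 2.70 on the log2 scale, against group medians of 1.29 and 1.38), a sign of RNA quality, and the gaps on CD25+CD49f- replicate 5 were 3.97 and 4.83. Their medians on the CD25-CD49f+ arrays were 1.13 and 1.37. Their part in the results was not tested. The number of arrays limits the precision, with a median standard error of a difference of 0.10.

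The 2 genes that define the gates behaved differently. Itga6 read from 9.55 through a median of 9.79 to 9.98 on the CD25-CD49f- arrays and from 9.23 through 9.37 to 9.47 on the CD25-CD49f+ arrays. Every array labelled CD49f+ was thus below every array labelled CD49f-, and the transcript runs against the surface gate. The difference was -0.44 ± 0.08 (adjusted p = 3.21e-04, limma with Benjamini-Hochberg adjustment over all genes), and a second probe set gave -0.42. The call was lost with the most variable probe set and when only the arrays with Y-linked transcripts were compared. Surface protein was not measured here, and the arrays are named by their labels throughout. Itgb1, the beta-1 partner chain, moved the other way and by more. It read from 8.28 through 8.93 to 9.28 in CD25-CD49f- cells and from 10.24 through 11.04 to 11.19 in CD25-CD49f+ cells, with no overlap. The difference was 2.13 ± 0.23 (adjusted p = 1.31e-07) and was 1.93 without CD25-CD49f- replicates 1 and 7. Itgb4, the other partner of the alpha-6 chain, read in the range of absent transcripts (below 6.50, the highest Xist signal on an array without Xist) and differed by -0.23 without passing the test. That limit comes from 1 gene. The Y-linked genes Eif2s3y and Kdm5d read at most 4.07 on arrays without Y-linked transcripts. A signal below 6.50 therefore does not show that a transcript is absent. Il2ra was low in both populations, from 5.14 through 5.47 to 5.62 and from 6.46 through 6.90 to 7.09, against means of 9.69 and 9.60 in the CD25+CD49f- and CD25+CD49f+ cells. Its difference of signal was 1.42 ± 0.10 (adjusted p = 1.85e-10), and a second probe set gave 0.51. All 7 CD25-CD49f- arrays were in the range of absent transcripts for Il2ra. Measured from the limit of that range, the transcript was at least 1.27-fold higher in CD25-CD49f+ cells.

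Over 18194 genes, 2443 (13.4%) passed an adjusted p of 0.05, of which 1457 (8.01% of all genes) were higher and 986 (5.42%) lower in CD25-CD49f+ cells. In 740 genes (4.07%) every CD25-CD49f+ array was above every CD25-CD49f- array, and in 312 (1.71%) every one was below. A difference of at least 2 on the log2 scale, which is 4-fold, was reached by 74 genes that rose and 5 that fell. Of the calls, 59.6% were increases, and this share was 48.1% after median centring and 49.8% after quantile normalization, while the median difference over all genes was -0.02, -0.06 and -0.03. The first group included Foxp3, Ifng, Ctla4 and a series of cell division genes, and the second Klra17, Pdlim4 and Kmo. Of the increases, 257 had 1 population in the range of absent transcripts (a mean below 6.50) and 337 had both, and of the decreases 107 and 265. The differences of these genes are differences of signal. Their size, and their order among other genes, is not known. Where all 7 arrays of a population were in that range, a lower bound of the fold was taken from the mean of the other population minus that limit. In sorted populations measured in bulk, fewer cells of a type and less RNA per cell cannot be told apart.

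**Figure D1:**
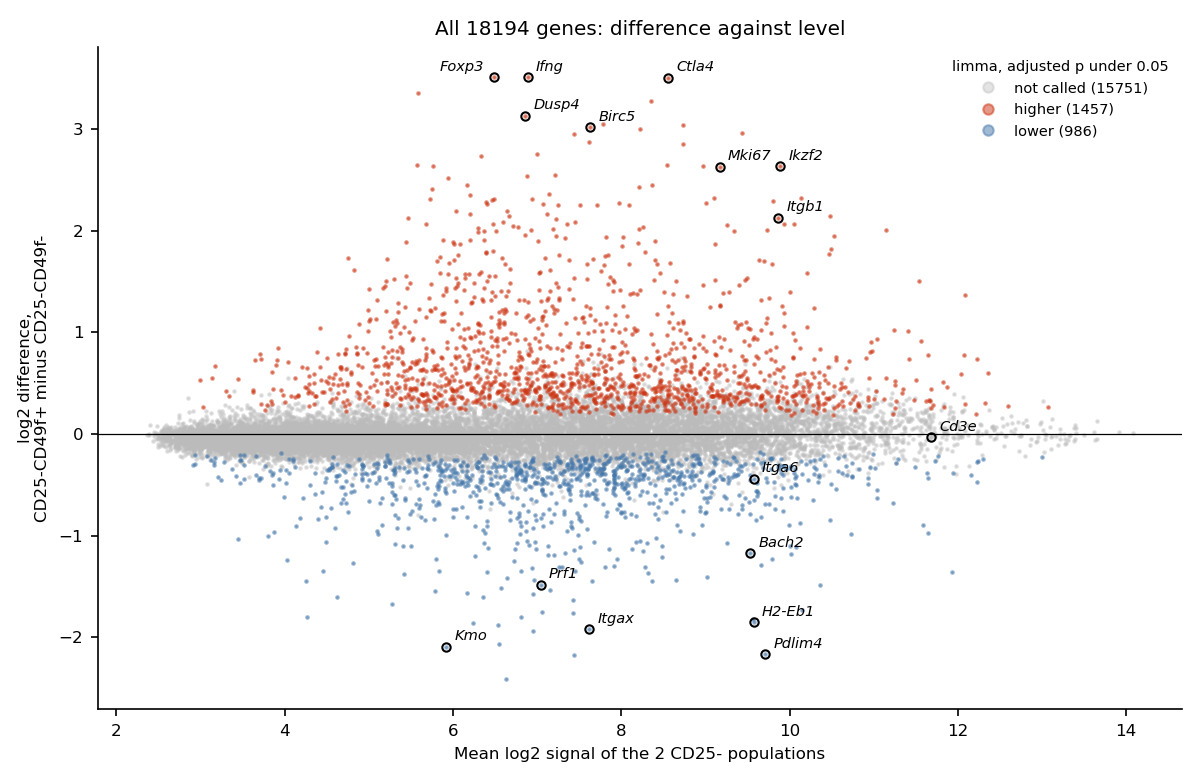
Each point is 1 of 18194 genes, with its mean log2 signal over the CD25- populations on the horizontal axis and its log2 difference (CD25-CD49f+ minus CD25-CD49f-) on the vertical axis. The 1457 genes called higher (red) reach further from 0 than the 986 called lower (blue), with Foxp3 and Ifng at 3.51 and Itga6 at -0.44.

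Genes of regulatory T cell identity formed the most complete increase: all 22 measured members of that list rose, with a median difference of 1.45 against -0.02 over all genes, and in 19 of them the populations did not overlap. Foxp3, the factor that defines the lineage, read from 4.21 through 4.77 to 5.11 in CD25-CD49f- cells and from 7.80 through 8.36 to 8.46 in CD25-CD49f+ cells. All 7 CD25-CD49f- arrays were in the range of absent transcripts, and no CD25-CD49f+ array was. The difference of signal was 3.51 ± 0.12 (adjusted p = 3.31e-16), and the transcript was at least 3.36-fold higher in CD25-CD49f+ cells. The CD25-CD49f+ level still lay below both CD25+ populations, whose means were 9.79 and 9.85. Ctla4, an inhibitory receptor that strips costimulatory ligands from antigen-presenting cells, rose from 6.13, 6.83 and 7.32 (lowest, median and highest) to 10.07, 10.33 and 10.49, a difference of 3.51 ± 0.14 (adjusted p = 2.67e-15). Ikzf2, which encodes the Ikaros family factor Helios, rose from 8.22, 8.59 and 8.85 to 11.02, 11.17 and 11.40, a difference of 2.63 ± 0.10 (adjusted p = 2.67e-15). Its relative Ikzf4 rose by 1.60. Capg, an actin-capping protein, rose by 2.25, and Itgae, the integrin alpha chain that binds E-cadherin, by 2.36. Tnfrsf4 (the costimulatory receptor OX40), Plagl1 and Socs2 rose by 1.51, 1.63 and 1.49. In CD25-CD49f- cells Capg, Itgae, Ikzf4, Plagl1 and Socs2 had means in the range of absent transcripts. Gpr83, a receptor abundant in regulatory T cells, rose by 0.37, and was not called among arrays without Y-linked transcripts (0.20, adjusted p = 0.412). The mean level of the list ran from 6.73 to 7.25 on the CD25-CD49f- arrays, from 8.44 to 8.73 on the CD25-CD49f+ arrays and from 9.66 to 9.92 on all CD25+ arrays, so CD25-CD49f+ cells lay between the others on every array.

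Among suppressive effector molecules, 16 of 20 measured members rose and 1 fell, with a median difference of 0.83. Nt5e, Entpd1 and Ctla4 are on this list and on that of Treg identity. Gzmb, which encodes the protease granzyme B, read from 5.90 through 6.25 to 6.49 and from 7.71 through 7.99 to 8.11, a difference of 1.73 ± 0.10 (adjusted p = 4.92e-12), and was at least 2.75-fold higher. Nt5e (CD73, which makes adenosine from AMP) rose by 2.01 ± 0.12, while Entpd1 (CD39, the enzyme before it) passed at 0.65 with both populations in the range of absent transcripts. The galectins Lgals1 and Lgals3 rose by 1.37 and 1.25, the inhibitory lectin receptor Klrg1 by 1.16 and the IL-35 subunit Ebi3 by 1.00. Ebi3 was in the range of absent transcripts on all CD25-CD49f- arrays and was at least 1.24-fold higher. The CD25-CD49f- mean of Klrg1, 6.49, was in that range too. Maf, a factor for Il10 transcription, rose by 2.27 ± 0.33, and by 1.80 without CD25-CD49f- replicates 1 and 7. Il10 itself passed at 0.48 ± 0.13 (adjusted p = 0.013), but both populations were in that range too and the call was lost in either subset of arrays formed by Y-linked transcripts. Prdm1, which drives effector differentiation, passed at 0.49, a call that was lost without CD25-CD49f- replicates 1 and 7 (0.34, adjusted p = 0.0937) or without CD25-CD49f+ replicate 2. The transcripts of other secreted suppressors gave no call, with 0.08 for Tgfb1, 0.30 for Fgl2 and -0.03 for Il12a. Havcr2, the inhibitory receptor Tim-3, was the member called lower, at -1.60 of signal, with means of 5.42 and 3.82 that are both in the range of absent transcripts.

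Anergy genes, which mark T cells that answer poorly to antigen, rose in 13 of 20 cases and fell in 1, with a median of 0.63. The list is not separate from others: Izumo1r, Nt5e, Nrp1 and Tnfrsf9 are also on the Treg identity list. Egr2, Egr3 and Nfatc1 are also on the list of nuclear factors induced by antigen, described below. The count of decreases was 4 without the 4 arrays that stand apart, 3 without CD25-CD49f- replicates 1 and 7, and 2 without any 1 of CD25-CD49f- replicates 1, 3 and 7 and CD25-CD49f+ replicate 5. Nrp1, a semaphorin receptor on thymus-derived regulatory T cells, read from 5.73 through 7.33 to 7.79 and from 9.21 through 9.95 to 10.10. The difference was 2.65 ± 0.22 (adjusted p = 1.04e-09), and 2.32 without CD25-CD49f- replicates 1 and 7.

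**Figure D2:**
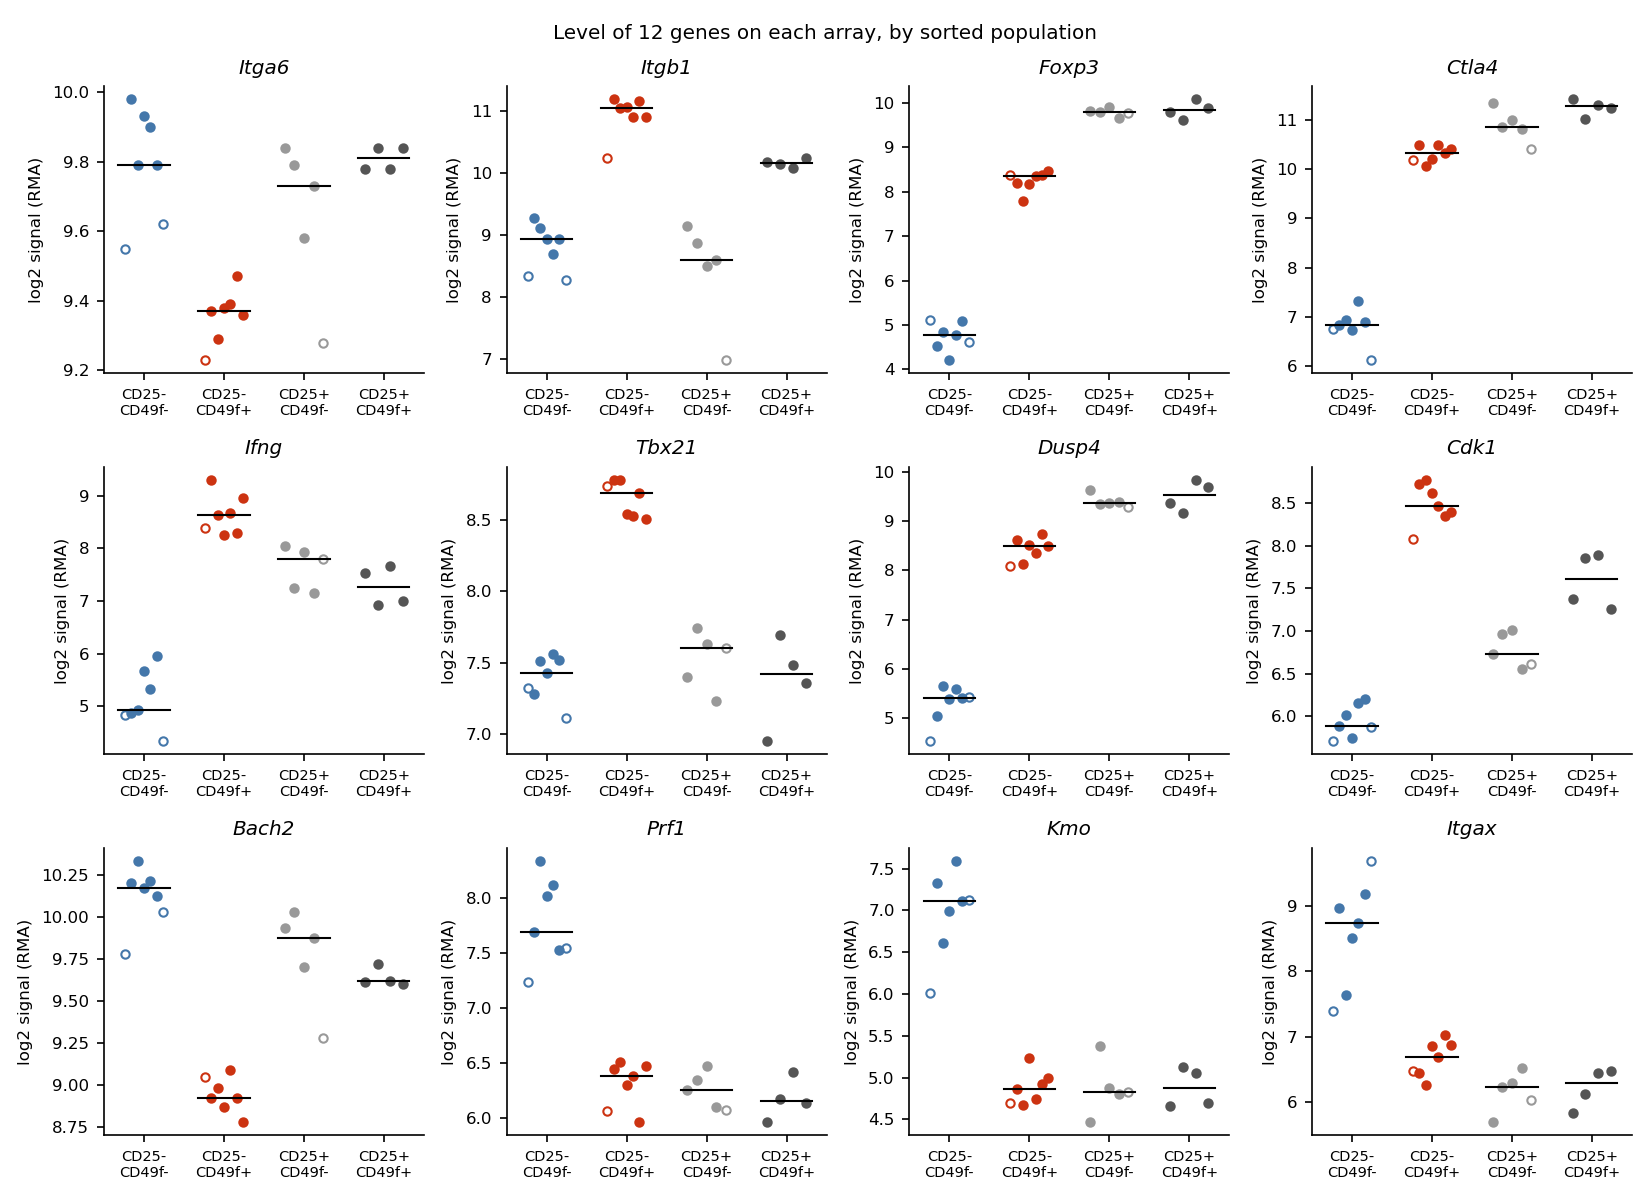
Each point is 1 array, placed by sorted population, with the log2 RMA signal of 12 genes on the vertical axes (which do not start at 0), a line at the group median and open points for the 4 arrays that stand apart. Foxp3, Ctla4 and Dusp4 of the CD25-CD49f+ arrays lie between the CD25-CD49f- and the CD25+ arrays, Ifng, Tbx21 and Cdk1 lie above all other groups' medians, and Itga6, Bach2, Prf1, Kmo and Itgax are lower on CD25-CD49f+ arrays than the CD25-CD49f- median.

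Cell division genes rose together. Of 59 measured mitosis genes, 55 rose, none fell, the median difference was 1.87, and 53 did not overlap between the populations. Of 39 measured S phase and DNA replication genes, 35 rose and none fell, with a median of 0.99 and 28 without overlap. Cdk1, the kinase that starts mitosis, read from 5.71 through 5.89 to 6.20 in CD25-CD49f- cells and from 8.08 through 8.46 to 8.77 in CD25-CD49f+ cells. The difference was 2.54 ± 0.12 (adjusted p = 8.76e-14), and the means of the CD25+CD49f- and CD25+CD49f+ cells were 6.77 and 7.60. Birc5 (survivin, a part of the chromosomal passenger complex) read from 5.73 through 6.14 to 6.48 and from 8.48 through 9.12 to 9.44, a difference of 3.02 ± 0.15 (adjusted p = 3.63e-13). Ccnb2, a cyclin that activates Cdk1, rose by 2.95 ± 0.16, and Ube2c, which serves the ubiquitin ligase that ends mitosis, by 3.0 ± 0.17. Mki67, the proliferation antigen Ki-67, read from 7.18 through 7.80 to 8.21 and from 10.32 through 10.49 to 10.61, a difference of 2.63 ± 0.15. For each of these genes every CD25-CD49f+ array was above every CD25-CD49f- array. All 7 CD25-CD49f- arrays were in the range of absent transcripts for Cdk1, Birc5 and Ccnb2, which were at least 3.96-fold, 6.25-fold and 5.34-fold higher. Other division genes among the 20 largest differences of signal were Depdc1a (3.36), Cep55 (3.05), Nusap1 (2.87), Top2a (2.86), Cdca5 (2.76), Bub1 (2.74), Spag5 (2.65), Cks2 (2.64) and Melk (2.64), of which Depdc1a, Cep55, Nusap1, Cdca5, Bub1, Spag5 and Melk had CD25-CD49f- means in that range.

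The CD25-CD49f+ cells also stood above the CD25+ cells in this program. Their mean was above both CD25+ means for 55 of the 59 mitosis genes. Such counts were also high in some other lists, with 10 of 11 neutrophil markers and 16 of 22 T cell receptor and proximal signalling genes. They were low in others, with 0 of 22 for Treg identity and 2 of 17 for the Bcl2 family. The share over all genes was not taken. The mean level of the mitosis list ran from 6.17 to 6.75 on the CD25-CD49f- arrays, from 8.27 to 8.60 on CD25-CD49f+ replicates 2 to 7, and was 7.90 on replicate 1. It ran from 6.79 to 7.16 in CD25+CD49f- cells and from 7.31 to 7.77 in CD25+CD49f+ cells. In the replication list, Pclaf, a partner of the sliding clamp, rose by 3.04 and Rrm2, which makes deoxyribonucleotides, by 2.96. Cdc6 and Ccne2, which license and fire replication origins, rose by 2.28 and 2.20 of signal from the range of absent transcripts. Uhrf1, which brings the maintenance methyltransferase to replicated DNA, rose by 2.44, whereas that enzyme, Dnmt1, gave 0.22 without a call and 0.46 and 0.44 with 2 other probe sets. Members without a call also included Tyms (0.26) and Orc1 (0.05). For Tpx2 (-0.27), Cdca3 (-0.09) and Cdc45 (-0.06) another probe set of the same gene gave 2.60, 2.04 and 1.37, so the value of these genes depends on the probe set.

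The promoters of these genes are shown because genes of one cell cycle phase share short elements there, and the members that rose together can be read side by side. Mitosis genes are known for the cell cycle homology region, written CHR and searched here by its core TTTGAA, which is often placed near a CCAAT box. Replication genes are known for E2F elements, searched here as TTCCCGC and, for a second form of the element, as TTGGCGC. Sequences are from RefSeq on GRCm38.p6, from 250 bases before to 30 after the start of the gene, 5′ to 3′ along the gene. Among members that rose and had a listed promoter, the 4 mitosis genes and the 2 replication genes with the smallest p are printed. Genes on a chromosome held out from printing were passed over in this choice. Capitals mark the CHR core and the CCAAT box in the mitosis genes, and the CCAAT box and both E2F forms in the replication genes, on either strand. Cdk1 lies at chr10:69352883-69353162 (minus strand), Ccnb2 at chr9:70421525-70421804 (minus strand), Ube2c at chr2:164769679-164769958 (plus strand), Birc5 at chr11:117848987-117849266 (plus strand), Uhrf1 at chr17:56303087-56303366 (plus strand) and E2f8 at chr7:48881567-48881846 (minus strand).
Cdk1: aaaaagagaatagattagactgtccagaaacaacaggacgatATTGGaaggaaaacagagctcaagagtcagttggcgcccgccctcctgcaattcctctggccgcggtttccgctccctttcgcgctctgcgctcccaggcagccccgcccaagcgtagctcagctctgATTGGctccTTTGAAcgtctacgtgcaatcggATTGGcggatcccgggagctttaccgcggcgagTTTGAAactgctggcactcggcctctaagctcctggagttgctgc
Ccnb2: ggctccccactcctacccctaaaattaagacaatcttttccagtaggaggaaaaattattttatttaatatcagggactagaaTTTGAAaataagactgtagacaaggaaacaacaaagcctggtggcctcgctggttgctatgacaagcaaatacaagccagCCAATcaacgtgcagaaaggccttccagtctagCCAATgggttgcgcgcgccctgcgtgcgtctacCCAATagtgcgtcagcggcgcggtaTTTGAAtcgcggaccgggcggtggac
Ube2c: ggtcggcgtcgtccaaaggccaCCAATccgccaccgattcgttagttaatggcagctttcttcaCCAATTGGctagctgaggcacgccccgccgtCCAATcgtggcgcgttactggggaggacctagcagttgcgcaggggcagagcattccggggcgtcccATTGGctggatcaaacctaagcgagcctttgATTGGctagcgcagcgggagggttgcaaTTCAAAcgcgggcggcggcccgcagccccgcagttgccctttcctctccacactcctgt
Birc5: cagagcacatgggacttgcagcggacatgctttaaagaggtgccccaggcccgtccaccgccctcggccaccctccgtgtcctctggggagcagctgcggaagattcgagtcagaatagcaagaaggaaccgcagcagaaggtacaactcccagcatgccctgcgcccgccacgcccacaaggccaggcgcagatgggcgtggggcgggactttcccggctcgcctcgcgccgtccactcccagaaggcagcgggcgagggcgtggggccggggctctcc
Uhrf1: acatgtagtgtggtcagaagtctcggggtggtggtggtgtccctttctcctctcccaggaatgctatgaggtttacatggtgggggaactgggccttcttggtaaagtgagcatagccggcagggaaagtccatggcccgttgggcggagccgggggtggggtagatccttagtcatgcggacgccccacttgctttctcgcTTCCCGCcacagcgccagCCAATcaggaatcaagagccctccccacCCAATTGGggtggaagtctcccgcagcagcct
E2f8: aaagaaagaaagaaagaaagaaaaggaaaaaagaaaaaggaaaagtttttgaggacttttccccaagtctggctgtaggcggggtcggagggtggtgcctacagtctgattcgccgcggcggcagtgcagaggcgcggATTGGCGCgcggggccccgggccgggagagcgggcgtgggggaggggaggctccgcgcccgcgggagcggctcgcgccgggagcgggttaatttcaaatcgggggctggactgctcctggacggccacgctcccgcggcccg

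Cdk1 and Ccnb2 hold the CHR core 2 times and the CCAAT box 3 times each in this window. Ube2c holds the core once and the box 6 times, with a pair of box matches overlapping, and Birc5 holds neither. Uhrf1 holds the first E2F form once and E2f8 the second form once, the latter overlapping a CCAAT box. Cdk1 also holds the second E2F form once and E2f8 the CHR core once, neither in capitals. Of the 55 mitosis genes that rose, 47 had a promoter in the table. The CHR core was in 28 of these (59.6%), against 15.1% of the 14453 tested genes with a promoter. It was in 16.1% of the 1090 genes with a promoter that rose and are on neither cell cycle list. The core and the CCAAT box together were in 24 of the 47 (51.1%), against 5.80% of tested genes. The CCAAT box on its own was shared, in 32 of the 47 mitosis genes (68.1%) and 19 of 30 replication genes (63.3%), against 41.1% of tested genes. In the replication genes an E2F form was in 16 of 30 (53.3%), against 6 of the 47 mitosis genes (12.8%) and 10.9% of tested genes, while the CHR core was in 4 of the 30 (13.3%). Genes with several listed promoters were counted once if any of them held the element. A match describes the letters in this window and is no evidence that a factor binds there.

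Genes that set entry into the cycle were mixed. Of 21 measured D cyclins, kinases and inhibitors, 10 rose and 2 fell, and without CD25-CD49f- replicates 1 and 7 the count was 7 and 2. Cdkn2c, an inhibitor of the D cyclin kinases, rose by 1.68 ± 0.09 (adjusted p = 2.79e-13), and Gadd45b, a stress-induced regulator, by 1.54. Ccnd1 read from 6.88 through 8.01 to 8.80 in CD25-CD49f- cells and from 5.17 through 6.10 to 6.53 in CD25-CD49f+ cells, without overlap, a difference of -1.94 ± 0.23 (adjusted p = 5.16e-07). Its CD25-CD49f+ mean, 5.99, was in the range of absent transcripts. Ccnd2, the D cyclin of resting and newly activated T cells, fell by 0.68. Ccnd3 and the kinase Cdk4 gave no call at -0.18 and 0.18, while the kinase Cdk6 rose by 0.68.

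**Figure D3:**
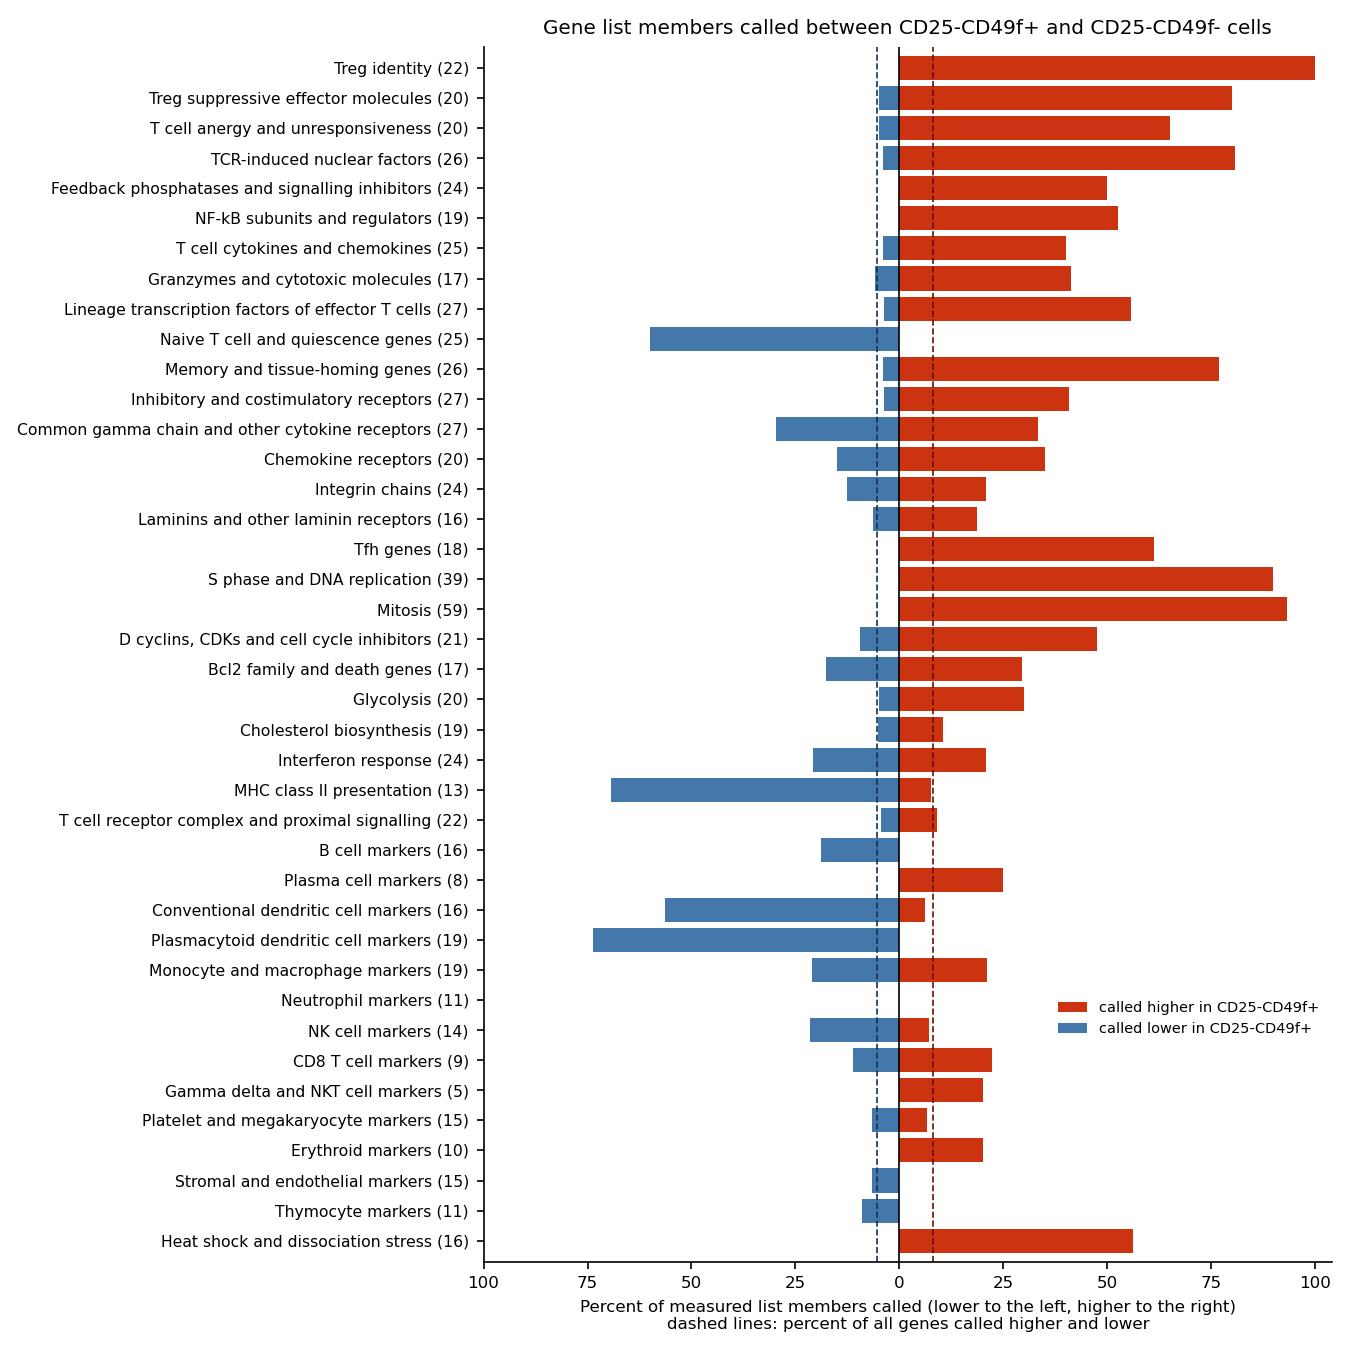
Bars give the percent of the measured members of 40 gene lists (number in brackets) that were called higher (red, to the right) or lower (blue, to the left) in CD25-CD49f+ cells, and the dashed lines give the same for all genes, 8.01% and 5.42%. Treg identity (22 of 22), mitosis (55 of 59) and S phase (35 of 39) lead the increases, and plasmacytoid dendritic cell (14 of 19), MHC class II (9 of 13) and naive T cell genes (15 of 25) the decreases.

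Genes that a T cell induces within hours of antigen contact were higher in CD25-CD49f+ cells. Of 26 nuclear factors of this kind, 21 rose and 1 fell, with a median of 0.73. Nr4a1, the orphan receptor Nur77 whose transcript follows antigen receptor signal strength, read from 8.15 through 8.52 to 9.05 and from 9.67 through 10.03 to 10.27. The populations did not overlap, and the difference was 1.40 ± 0.14 (adjusted p = 2.82e-08). Bhlhe40 and Egr2 rose by 1.42 and 0.99. Nr4a2 passed at 1.21 with means of 4.60 and 5.81, both in the range of absent transcripts. The AP-1 subunits Fos, Fosb and Jun rose by 2.0 ± 0.33, 2.14 ± 0.27 and 1.95 ± 0.33. Myc gave -0.23 and Nfatc1 0.15, neither with a call, although other probe sets of Nfatc1 gave 0.54 to 0.87.

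Feedback inhibitors of signalling rose in 12 of 24 cases, with none lower and a median of 0.50. After median centring, after quantile normalization and without the 4 arrays that stand apart, 2 were lower, and 3 with array weights. Dusp4, a phosphatase of nuclear MAP kinases, read from 4.53 through 5.40 to 5.65 and from 8.10 through 8.49 to 8.74, a difference of 3.13 ± 0.14 (adjusted p = 5.00e-14), and was at least 3.79-fold higher. Rgs1, which dampens chemokine receptor signals, read from 6.17 through 6.44 to 7.80 and from 9.40 through 9.95 to 10.48, a difference of 3.28 ± 0.21 (adjusted p = 1.16e-11). Neither gene overlapped between the populations. Tnfaip3 (A20, which ends NF-kB signalling) rose by 2.32, Dusp1 by 2.15 and Spry1 by 1.66. In the NF-kB list, 10 of 19 rose and none fell, with a median of 0.20. The inhibitors Nfkbia and Nfkbiz rose by 0.73 and 1.26 and the subunit Rel by 1.01, whereas Rela (-0.05) and Nfkb2 (0.01) gave no call. Rel rose from the range of absent transcripts and was at least 1.23-fold higher. The count of increases in the NF-kB list was 7 without CD25-CD49f- replicates 1 and 7, and 6 after median centring or without any 1 of CD25-CD49f+ replicates 2, 5 and 7.

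Stress genes moved beside these. Of 16 heat shock and dissociation genes, which cell preparation can induce, 9 rose and none fell (median 0.56), and Fos, Jun, Egr1, Dusp1, Atf3 and Ier2 are on this list and on those above. Hspa1a, an inducible chaperone, read from 6.44 through 8.18 to 10.60 and from 10.12 through 10.85 to 11.72, with overlap, a difference of 2.30 ± 0.48 (adjusted p = 0.00127). The constitutive chaperone Hspa8 and the cochaperone Dnajb1 gave 0.08 and 0.12 without a call, but a second probe set of Dnajb1 gave 0.83 and another of Hspa8 gave 0.65. The mean level of the list ran from 9.56 to 10.74 in CD25-CD49f- cells and from 10.66 to 11.14 in CD25-CD49f+ cells. CD25-CD49f- replicates 4 and 6 were highest in their group for Hspa1a (10.60 and 10.52), Fos and Jun. The part of cell handling in the antigen-induced genes was not tested.

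Ifng, Tbx21 and Cxcr3, which are known from Th1 cells, were called higher, while Hlx (-0.33), Il12rb2 (-0.19) and Ccl5 (-0.39), also known from these cells, gave no call. Ifng, the cytokine of Th1 cells, read from 4.34 through 4.93 to 5.95 in CD25-CD49f- cells, in the range of absent transcripts, and from 8.25 through 8.64 to 9.30 in CD25-CD49f+ cells. The difference of signal was 3.51 ± 0.22 (adjusted p = 7.90e-12), at least 4.42-fold, and the CD25-CD49f+ mean was above the CD25+ means of 7.63 and 7.29. Tbx21, which encodes the Th1 factor T-bet, read from 7.11 through 7.43 to 7.56 and from 8.51 through 8.69 to 8.78, a difference of 1.26 ± 0.10 (adjusted p = 7.80e-10), while the CD25+ means were 7.52 and 7.37. Cxcr3, the chemokine receptor that T-bet controls, read from 8.78 through 8.91 to 9.13 and from 10.53 through 10.61 to 10.77, a difference of 1.67 ± 0.10 (adjusted p = 3.66e-12). All 3 genes were without overlap between the populations. The receptor chains Il12rb1, Il18r1 and Il18rap, which carry the signals that induce Ifng, rose by 1.56, 0.74 and 0.86. Il12rb1 rose from the range of absent transcripts and was at least 1.72-fold higher.

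Over the whole cytokine list, 10 of 25 members rose and 1 fell (median 0.20). Il2 passed at 1.22 ± 0.15 with both populations in the range of absent transcripts. Tnf rose by 0.86 ± 0.11, and the TNF family ligands Tnfsf14 and Tnfsf11 by 1.33 and 2.26, the last by 1.77 without CD25-CD49f- replicates 1 and 7. Tnfsf14 was in that range on all CD25-CD49f- arrays and was at least 1.42-fold higher. Il4 passed at 0.29 in the range of absent transcripts, a call lost without CD25-CD49f- replicate 2 or 3 or CD25-CD49f+ replicate 3 or 5 (differences of 0.23 to 0.34 without single arrays). Il17a (-0.04), Il5 (-0.07), Il13 (-0.07) and Csf2 (-0.04) gave no call and read in that range too. Ltb, which organises lymphoid tissue, was the member that fell, by 0.38, and was not called without CD25-CD49f- replicate 5 or 7 or CD25-CD49f+ replicate 3 or 6 (-0.43 to -0.29). Of 27 lineage factors, 15 rose and 1 fell (median 0.49). Rora and Ahr, linked to Th17 cells, rose by 1.51 and 1.07, Gata3, the Th2 factor, by 0.94, and Nfil3 by 1.53. Nfil3 was in the range of absent transcripts on all CD25-CD49f- arrays and was at least 1.34-fold higher. Eomes passed at 0.55 but not without CD25-CD49f- replicates 1 and 7 (0.34, adjusted p = 0.0565). Bcl6, the factor of follicular helper cells, gave 0.03 without a call, while 11 of 18 follicular helper genes rose and none fell (median 0.75), among them Cd200 (1.79), Icos (1.58), Pdcd1 (1.45) and the follicle-homing receptor Cxcr5 (1.23). Cxcr5 rose from the range of absent transcripts and was at least 1.66-fold higher.

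Cytotoxic genes did not move as 1 block: 7 of 17 rose and 1 fell (median 0.09). Besides Gzmb, Nkg7, Cst7 and Gzmk rose by 0.99, 1.08 and 0.72. Prf1, which encodes the pore-forming perforin that delivers granzymes, moved the other way. It read from 7.24 through 7.69 to 8.34 in CD25-CD49f- cells and from 5.96 through 6.38 to 6.51 in CD25-CD49f+ cells, a difference of -1.48 ± 0.14 (adjusted p = 7.46e-09). Gzma gave 0.09 without a call.

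Memory and naive genes moved in opposite directions. Of 26 memory and tissue-homing genes, 20 rose and 1 fell (none without CD25-CD49f- replicate 1, 3, 5 or 7 or CD25-CD49f+ replicates 2 to 7, each left out alone), with a median of 0.91 and 18 without overlap. Anxa2, a membrane-binding protein of antigen-experienced T cells, read from 7.89 through 8.20 to 8.31 and from 9.74 through 10.12 to 10.17, a difference of 1.87 ± 0.09 (adjusted p = 8.76e-14). Il2rb, the receptor chain for interleukins 2 and 15, rose by 1.90 ± 0.10. S100a6 and S100a4, calcium-binding proteins of motile cells, rose by 2.06 and 1.82, and the hyaluronan receptor Cd44, used to sort memory cells, by 1.24. Of 25 naive and quiescence genes, none rose and 15 fell, with a median of -0.61. Pdlim4, an adaptor protein, read from 10.58 through 10.73 to 11.16 and from 8.27 through 8.60 to 9.30, a difference of -2.17 ± 0.14 (adjusted p = 1.21e-11). Bach2, a repressor that holds T cells in a quiescent state, read from 9.78 through 10.17 to 10.33 and from 8.78 through 8.92 to 9.09, a difference of -1.17 ± 0.10 (adjusted p = 1.04e-09). Both were without overlap, and the CD25+ means of Bach2 were 9.76 and 9.64. Lef1 and Satb1, chromatin regulators of naive cells, fell by 0.89 and 0.97, Igfbp4 by 1.36 and Dapl1 by 1.10. The lymph node receptor Ccr7 fell by 0.98. Klf2 (-0.26) and S1pr1 (-0.09), which govern exit from lymph nodes, gave no call. Il7r gave -0.40 without a call (adjusted p = 0.092), and passed without CD25-CD49f- replicate 7 alone, and without replicates 1 and 7 together (-0.59 for the latter, adjusted p = 1.43e-04).

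**Figure D4:**
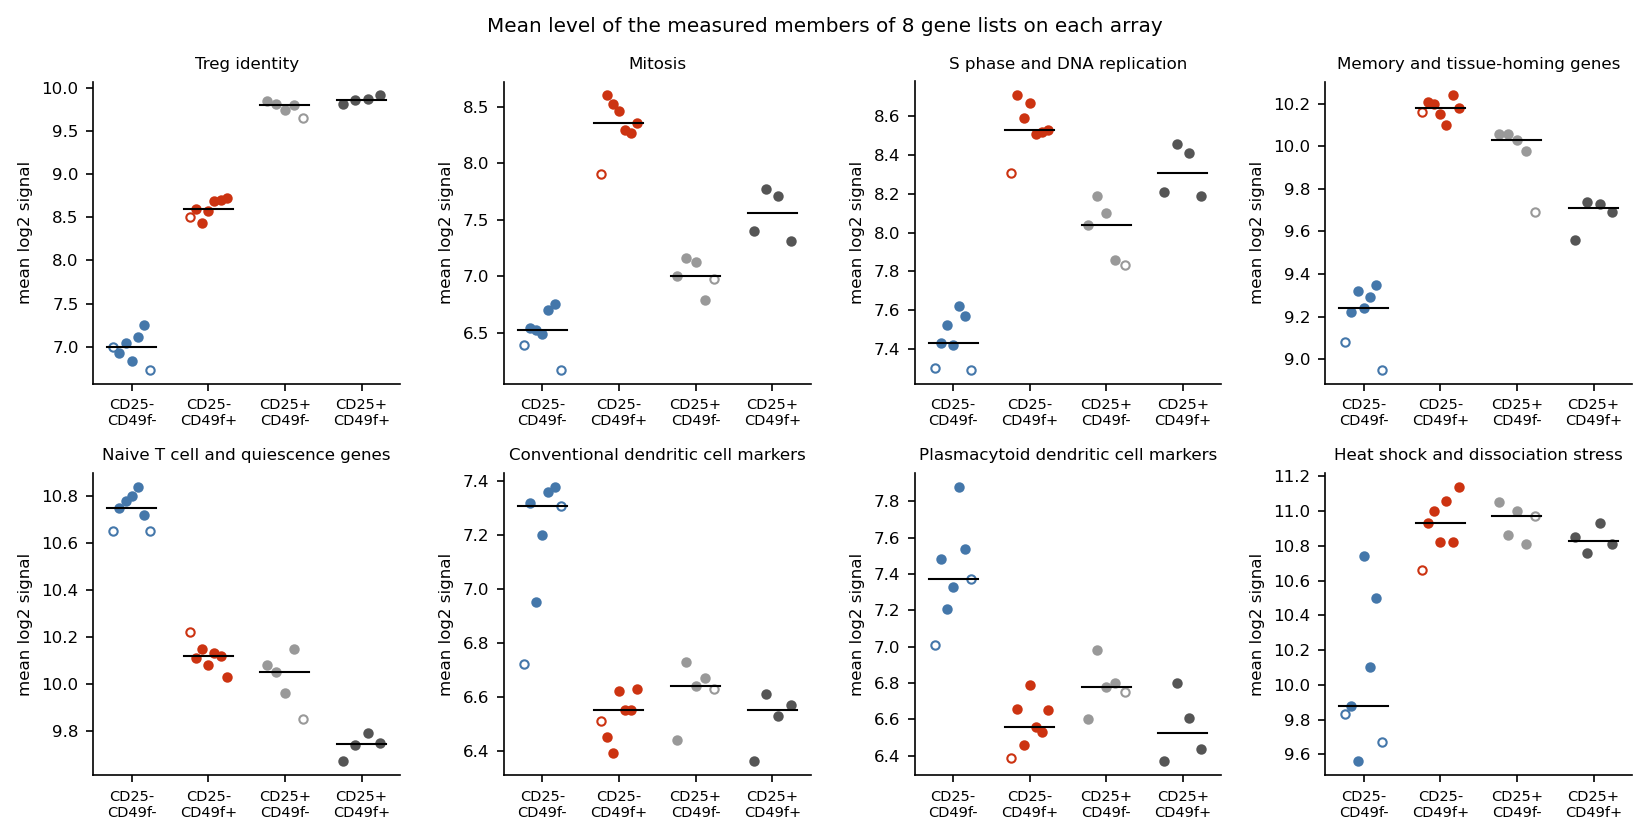
Each point is 1 array, with the mean log2 signal over the measured members of 8 gene lists on the vertical axes (which do not start at 0), by sorted population, with a line at the group median and open points for the 4 arrays that stand apart. CD25-CD49f+ arrays lie between the other groups for Treg identity (8.44 to 8.73), above all others for mitosis (7.90 to 8.60), and below CD25-CD49f- arrays for the dendritic cell markers.

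Receptors for tissue cues were split. Of 20 chemokine receptors, 7 rose and 3 fell (median 0.20). Gpr15, which directs T cells to the colon, rose by 1.68, Ccr6 by 1.25 and Ccr10, a receptor for skin and mucosal homing, by 0.96, while Ccr9, the receptor for the small intestine, fell by 0.95. All CD25-CD49f- arrays were in the range of absent transcripts for Gpr15 and Ccr10, which were at least 1.23-fold and 1.19-fold higher. Cxcr6 gave 0.87 without a call (adjusted p = 0.242). Of 24 integrin chains, 5 rose and 3 fell (median 0.04). Besides Itgb1 and Itgae, Itgb8, which activates latent TGF-beta, rose by 1.54 and Itgav and Itgal by 0.61 and 0.33. Itgb8 rose from the range of absent transcripts and was at least 1.23-fold higher. Without CD25-CD49f+ replicate 6 Itgav was not called (0.40 to 0.69 without single arrays). Itgax, Itgb3 and Itga6 fell by 1.92, 0.70 and 0.44. The gut-homing chains Itga4 and Itgb7 gave no call, at 0.10 each, although other probe sets of Itga4 gave 0.17 to 1.12. Among 16 laminins and other laminin receptors, 3 rose and 1 fell (median 0.00): Lamc1 and the galectins rose and Dag1, which encodes dystroglycan, fell by 0.44. Rpsa, a ribosomal protein that is also named laminin receptor, and the integrin partner Cd151 gave -0.01 and 0.02 without a call.

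Of 27 inhibitory and costimulatory receptors, 11 rose and 1 fell (median 0.30), led by Ctla4, Icos, Cd200 and Pdcd1. Of 27 cytokine receptor genes, 9 rose and 8 fell (median 0.17), and 5 fell without CD25-CD49f- replicate 3 or CD25-CD49f+ replicate 1 or 3. The decreases included Il4ra (-0.68), Ifngr2 (-0.51) and the TGF-beta receptors Tgfbr2 (-0.43) and Tgfbr3 (-0.90). Il6st passed at -0.61, but its most variable probe set gave 0.09, and the call was lost without CD25-CD49f- replicate 3, 4 or 7 or CD25-CD49f+ replicate 1, 3 or 7 (-0.68 to -0.50). Among survival genes, Bcl2 read from 10.36 through 10.71 to 10.85 and from 9.33 through 9.49 to 9.81, a difference of -1.11 ± 0.11 (adjusted p = 1.63e-08), and its CD25+ means were 10.63 and 10.42. The BH3 protein Pmaip1 and the survival protein Bcl2l1 rose by 1.17 and 0.53. In all, 5 of 17 members of that list rose and 3 fell (median -0.03). For Mcl1 (-0.27) other probe sets gave -0.32 to 0.32. In glycolysis, 6 of 20 genes rose and 1 fell (median 0.15): the enzymes Tpi1, Pgk1 and Gapdh and the transporter Slc2a3 rose by 0.57, 0.51, 0.51 and 0.53 (for Gapdh by its 3′ probe set, with 0.73 and 0.98 from the middle and 5′ ones), and Pdk1, which keeps pyruvate out of mitochondria, fell by 0.49. In cholesterol synthesis, 2 of 19 rose and 1 fell (median 0.10), near the shares of all genes, 8.01% and 5.42%. Of its members, 1 rose without CD25-CD49f- replicate 7 or CD25-CD49f+ replicate 4 or 7, and 4 rose and 2 fell without the 4 arrays that stand apart. In the interferon response 5 of 24 rose and 5 fell (median 0.08), and 3 fell without any 1 of CD25-CD49f- replicates 2, 3 and 5 and CD25-CD49f+ replicates 1, 3, 4 and 5. Of the T cell receptor complex and its proximal signalling genes, 2 of 22 rose (Fyn and Lcp2, 0.34 each) and 1 fell (Rasgrp1, -0.54), with a median of 0.00. These counts too were near the shares of all genes. The call of Lcp2 was lost without CD25-CD49f- replicate 1, 2 or 6 or any CD25-CD49f+ replicate other than the third (0.26 to 0.38).

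The decreases were led by genes of dendritic cells and antigen presentation. Of 16 measured conventional dendritic cell markers, 9 fell and 1 rose (median -0.60). Of 19 plasmacytoid dendritic cell markers, 14 fell and none rose (median -0.58). Of 13 MHC class II genes, 9 fell and 1 rose (median -0.77). Kmo, an enzyme of tryptophan breakdown, read from 6.01 through 7.11 to 7.59 in CD25-CD49f- cells and from 4.67 through 4.86 to 5.24 in CD25-CD49f+ cells, a difference of -2.09 ± 0.17 (adjusted p = 1.53e-09). Itgax (CD11c, the integrin used to identify dendritic cells) read from 7.39 through 8.73 to 9.68 and from 6.25 through 6.69 to 7.02, a difference of -1.92 ± 0.25 (adjusted p = 2.82e-06). Both were without overlap, and the CD25+ means, 4.87 and 4.89 for Kmo and 6.16 and 6.22 for Itgax, were near the CD25-CD49f+ level. The lectin Cd209a fell by 1.57, and Clec10a passed at -1.67 with both means in the range of absent transcripts. Klra17, a lectin receptor of plasmacytoid dendritic cells, read from 7.21 through 8.66 to 9.61 and from 5.11 through 6.57 to 6.94, a difference of -2.17 ± 0.32 (adjusted p = 1.27e-05). Siglech, which defines these cells, read from 6.02 through 7.24 to 7.89 and from 5.54 through 5.67 to 6.03, and overlapped only by CD25-CD49f- replicate 1. Its difference was -1.36 ± 0.17 (adjusted p = 2.21e-06). The nuclease Dnase1l3, the factors Spib and Tcf4, and Rnase6 fell by 1.86, 1.43, 1.42 and 2.06. All 7 CD25-CD49f+ arrays were in the range of absent transcripts for Kmo, Cd209a, Siglech, Dnase1l3 and Rnase6. In this order these genes were at least 1.38-fold, 1.37-fold, 1.51-fold, 1.6-fold and 2.12-fold lower. The CD25-CD49f+ mean of Klra17, 6.35, was in that range too. For Klk1 the probe set used gave -0.11, while 2 other probe sets gave -3.23 and -3.28.

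The MHC class II chains H2-Eb1, H2-Ab1 and H2-Aa and the invariant chain Cd74 fell by 1.85, 1.82, 1.49 and 1.73, without overlap. H2-Eb1 read from 9.44 through 10.72 to 11.16 and from 7.86 through 8.78 to 9.12. Unlike Kmo, these genes were intermediate in CD25+CD49f- cells, with a mean of 9.82 for H2-Eb1 against 8.43 in CD25+CD49f+ cells. Not every defining marker moved. The dendritic cell factor Zbtb46 (-0.25), Xcr1 (-0.11) and Cst3 (0.06) gave no call, and neither did Irf7 (-0.20). Ccr7 and Ccr9, counted among these lists, are also T cell genes, and Cd83, the conventional dendritic marker that rose (1.48), is expressed by activated T cells. The CD25-CD49f- mean of Cd83, 6.48, was in the range of absent transcripts.

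Markers of other cells moved less. Tyrobp, an adaptor of myeloid and NK cells, fell by 1.44, and Klrd1 (CD94) by 1.45, with 3 of 14 NK markers lower (Prf1 included) and 1 higher, while the NK receptor Ncr1 gave 0.00. Of 16 B cell markers, 3 fell (Spib, Fcrla and Cd72) and none rose, with a median of 0.016. Members without a call went both ways, with 0.694 for Cd79b, 0.565 for Ms4a1, -0.531 for Blnk, 0.07 for Cd79a and 0.00 for Pax5. Ighm was high in both CD25- populations, with means of 12.9 and 13.0 (CD49f- first), and so was the plasma cell marker Jchain (11.3 and 11.5). The source of this signal was not tested. Fcrla and Cd72, both in the range of absent transcripts, lost the call without CD25-CD49f- replicate 5 or 6 or CD25-CD49f+ replicate 1 or 6, and Cd72 also without CD25-CD49f- replicate 7 or CD25-CD49f+ replicate 3 (-0.91 to -0.58 and -0.38 to -0.29). Of 19 monocyte markers, 4 fell and 4 rose. The increases numbered 1 without CD25-CD49f+ replicate 5 and 2 without any 1 of CD25-CD49f- replicates 2, 4 and 6 and CD25-CD49f+ replicates 4 and 7, while Csf1r (-0.07) and Lyz2 (0.06) gave no call. Of 9 CD8 T cell markers, 2 rose and 1 fell, and Cd8a and Cd8b1 gave -0.36 and -0.10 without a call. The mean level of the conventional dendritic list ran from 6.72 to 7.38 in CD25-CD49f- cells, 6.39 to 6.63 in CD25-CD49f+ cells, and 6.36 to 6.73 over the CD25+ arrays. That of the plasmacytoid list ran from 7.01 to 7.88, 6.39 to 6.79, and 6.37 to 6.98. CD25-CD49f- replicate 1 was lowest of its group in both. Without CD25-CD49f- replicates 1 and 7 the differences were -2.25 for Kmo, -1.94 for Itgax, -2.56 for Klra17 and -1.93 for H2-Eb1. Among the arrays that lacked Y-linked transcripts, 6 of 16, 7 of 19 and 5 of 13 members of the dendritic, plasmacytoid and class II lists fell, and among those with them and without Xist 9, 11 and 9 fell. The part of dendritic cell RNA in other decreases was not tested.

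Within the subsets by Y-linked transcripts (4 against 4 CD25- arrays without them, and 3 against 3 with them and without Xist) the members called higher numbered 19 and 20 of 22 for Treg identity, 54 and 53 of 59 for mitosis, 29 and 29 of 39 for S phase, and 19 and 16 of 26 for memory genes. For naive genes 14 and 10 of 25 were lower. NF-kB genes had 4 and 5 of 19 higher, cytokines 7 and 5 of 25, lineage factors 12 and 9 of 27, integrin chains 3 and 2 of 24 and glycolysis 4 and 1 of 20. Over all 18194 genes, 846 and 752 were called higher in these subsets and 494 and 328 lower. The 1 of 20 for glycolysis is near that share. Of the genes described above, Egr2 (0.70, adjusted p = 0.14), Nfkbiz (0.97, adjusted p = 0.104), Spib (-1.35, adjusted p = 0.0566), Tcf4 (-1.59, adjusted p = 0.053), Atf3, Fcrla, Ifngr2 and Tmem176b were not called in the arrays without those transcripts. Those not called in the arrays with them included Itgb8 (1.49, adjusted p = 0.134), Tgfbr3 (-0.64, adjusted p = 0.254), Gzmk (0.59, adjusted p = 0.165), Ahr (1.22, adjusted p = 0.0502), Rel, Entpd1, Eomes, Il6st, Tgfbr2, Dag1, Lamc1, Ier2, Mcl1, Tpi1, Gapdh, Slc2a3 and Pdk1. Prdm1, Il4, Ltb, Itgal, Itgav, Fyn, Lcp2, Cd72, Klrb1b and Tmem176a were called in neither. Each of these genes had the same sign in both subsets as over all arrays.

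The same CD49f comparison in CD25+ cells shares no array with this one, so the 2 differences could be tested against each other. The difference between them passed the test for 966 genes: 787 (4.33% of all genes) were more positive in CD25- cells and 179 (0.984%) more negative. Of the 1457 genes that rose with CD49f in CD25- cells, 58 also rose in CD25+ cells, 54 fell and 1345 were not called there, and the test of the difference itself passed the same way for 630. Of the 986 that fell, 70 also fell, 2 rose and 914 were not called, and the test passed the same way for 168. The comparison in CD25+ cells holds only 4 and 5 arrays, so a gene not called there is not shown to be unchanged. CD25+CD49f- replicate 5 was the only array with both Xist (10.67) and Y-linked transcripts (7.64). Without the 4 arrays that stand apart, which include it, 1710 genes passed the test of the difference.

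Lists differed in this respect. For mitosis, 49 of 59 genes had a larger difference in CD25- cells, where the median was 1.87 against 0.53 in CD25+ cells. For Treg identity it was 17 of 22, with medians of 1.45 and 0.07, for memory genes 18 of 26 and for S phase 20 of 39. Foxp3 differed by 0.06 in CD25+ cells, and the test of the difference gave 3.46. A second pattern was a reversal. Lgals3, Klrg1 and Gzmb rose by 1.25, 1.16 and 1.73 in CD25- cells and gave -2.49, -1.95 and -0.74 in CD25+ cells. Arnt2, a bHLH-PAS factor, likewise gave 0.74 and -3.10 with the probe set used, but its 2 other probe sets gave -0.061 and -0.085 in CD25- cells. These genes were highest in CD25+CD49f- cells, with means of 11.15 for Lgals3 and 9.85 for Klrg1. Tmem176a, Tmem176b and Klrb1b were lower with CD49f in both gates, by far more in CD25+ cells (-3.25, -3.34 and -4.21) than in CD25- cells (-0.36, -0.49 and -0.24). In CD25- cells Klrb1b lost its call without CD25-CD49f- replicate 1, 2, 3 or 6 or CD25-CD49f+ replicate 1, 3 or 4 (-0.28 to -0.21). Klrb1b and Arnt2 were in the range of absent transcripts in both CD25- populations.

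Osbpl3, an oxysterol-binding protein, and Myo1f, a myosin of leukocytes, rose by 2.07 and 1.37 in CD25- cells and gave 0.04 and -0.97 in CD25+ cells. Prf1, Bach2, Kmo and Dnase1l3 fell with CD49f in CD25- cells and gave -0.07, -0.12, 0.01 and 0.24 in CD25+ cells, and the tests of the difference passed at -1.41, -1.05, -2.11 and -2.11. Itga6 also differed between gates, with 0.16 in CD25+ cells and -0.60 for the test of the difference. Itgb1 rose by 2.13 and 1.74 in the CD25- and CD25+ cells, and here that test gave no call. For H2-Eb1, likewise without a call, the differences were -1.85 and -1.39.

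**Figure D5:**
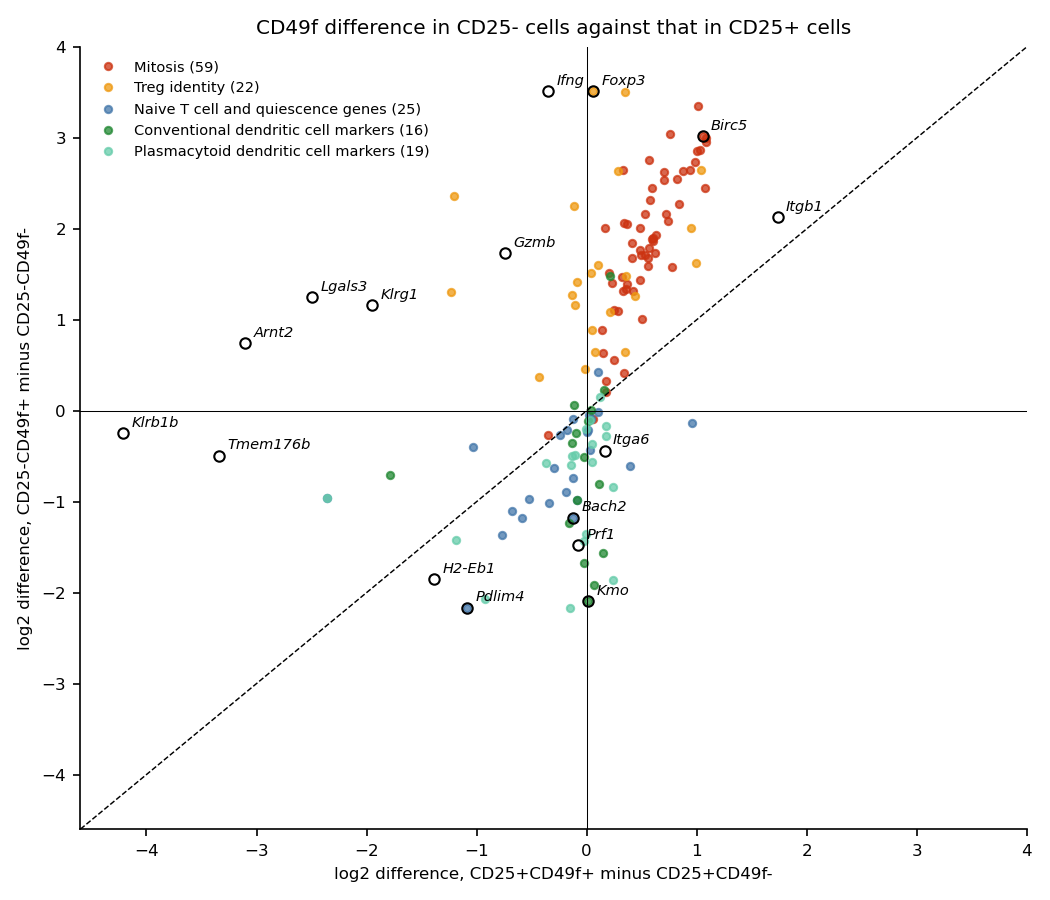
Each point is a gene of 5 lists or a named gene, with its log2 difference by CD49f in CD25+ cells on the horizontal axis and in CD25- cells on the vertical axis, and the dashed line marks equal differences. Most mitosis genes lie above the line (medians 1.87 and 0.53), Foxp3 and Ifng lie at 3.51 in CD25- cells near 0 in CD25+ cells, and Lgals3, Klrg1, Gzmb and Arnt2 (by the probe set used) have opposite signs.

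The order of the 4 populations differed between gene groups. Of the 1457 genes that rose, the CD25-CD49f+ mean lay between CD25-CD49f- and both CD25+ means in 390, as for Foxp3, Ctla4 and Dusp4, beyond both CD25+ means in 815, as for Ifng, Tbx21, Cxcr3 and Cdk1, and between the CD25+ means in 252. Of the 986 that fell, these numbers were 276, 464 and 246. The genes were chosen by a difference that holds the CD25-CD49f+ mean, which favours means beyond both CD25+ means. The same counts over all genes were not taken, so no excess can be read from these numbers. Whether the same cells carried the regulatory T cell genes, Ifng, Tbx21 and the mitosis genes cannot be told from sorted bulk RNA.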

How the data were processed

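Each array holds 45101 probe sets of an Affymetrix mouse array. The deposited values are on a log2 scale and were made by the authors with RMA (background correction, quantile normalization and probe set summary), per the submitters' processing notes; the RMA version and the scanner files are not used here. GEO's platform annotation names 1 gene for 34958 probe sets, several for 932 and none for 9211, and symbols were updated through Entrez identifiers against RefSeq (GRCm38.p6), with 204 unmatched. Each of the 18194 genes took its value from whichever of its probe sets had the top mean signal across all 23 arrays.

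Groups were taken from the sample titles. One limma model (version 3.58.1, R 4.3.3) with 4 groups and 19 residual degrees of freedom gave the CD49f difference in CD25- cells and its difference from that in CD25+ cells. Benjamini-Hochberg adjustment ran over all genes and the threshold was 0.05. Arrays more than 3 median absolute deviations below the median in their median correlation were said to stand apart. Y-linked transcripts were read from Eif2s3y and Kdm5d, because no probe set names Ddx3y alone. The script was tested on simulated data.

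Foxp3, Il2ra, Itga6 and Itgb1 were always named, then the 20 largest changes in each direction among called genes with a proper name, up to 6 called members of each of 40 gene lists in each direction with up to 4 uncalled ones as values, and the 10 smallest p of the interaction in each direction. The comparison, lists and rules were chosen with earlier results of these data known, and 801 of 871 listed entries were measured. Lists share members, and the measured entries are 683 different genes. Genes named in addition were members of these lists, and some were chosen after their values were seen. Alternatives covered each left-out array, the normalization, the probe set rule, the arrays in the fit, a replicate block and stricter thresholds. Promoters are RefSeq's, 250 bases before to 30 after the start.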

Additional observations from a re-analysis of the deposited data

Results flagged for a closer look

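Single arrays far from the others of their group were found in 20 of 166 groups of 7 values tested, by Dixon's ratio of the gap to the range. Chance flags about 1 in 20 groups. Most were low values on CD25-CD49f+ replicate 1, one of the arrays that stand apart: Itgb1 (0.692), Depdc1a (0.667), Cep55 (0.62), Pclaf (0.596), Bub1 (0.622), Nrp1 (0.748), Cks2 (0.678), Melk (0.604) and Rnd3 (0.592), while Pdlim4 was high there (0.621). The mean levels of the lineage factor (0.583), follicular helper (0.645) and D cyclin (0.688) lists were low on the same array. CD25-CD49f- replicate 7 was low for Rrm2 (0.658), Nusap1 (0.598), Nrp1 (0.653) and Cks2 (0.762), and replicate 1 for Cd209a (0.596) and for the interferon list (0.612). CD25-CD49f- replicate 5 was high for Clec10a (0.715). For every one of these genes the difference between the CD25- populations had the same direction without the 4 arrays that stand apart.

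The CD49f difference in CD25- cells was different from that in CD25+ cells for 966 genes, by the interaction term of the limma fit. Among the genes named by the smallest p, the difference between the gates (CD25- minus CD25+) was 3.455 for Foxp3, 3.742 for Lgals3, 3.113 for Klrg1, 2.473 for Gzmb, 3.848 for Arnt2, 3.971 for Klrb1b, 2.888 for Tmem176a, 2.847 for Tmem176b, 2.036 for Osbpl3 and 2.342 for Myo1f. It was -2.106 for Kmo, -2.107 for Dnase1l3, -1.405 for Prf1, -1.051 for Bach2, -0.767 for Man1c1, -0.987 for Tbc1d16, -0.884 for Klhdc1, -0.675 for Card6, -0.991 for Adh1 and -0.696 for Fam78a. For Man1c1, a mannosidase of the Golgi, the differences in the CD25- and CD25+ cells were -0.42 and 0.35.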

How the results depend on the processing

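The 218 named genes counted here all had a call, so none could gain one. Of their 6727 results over 31 alternative settings, 6246 kept direction and call, 478 lost the call and 3 changed sign. Those 3 came with the most variable probe set of a gene: Il6st (0.087), Mcl1 (0.273) and Klrb1b (0.164). The call held under all alternatives other than stricter thresholds for 144 genes. Leaving out 1 CD25- array at a time gave 1285 to 1540 genes called higher, 811 to 1180 lower and 865 to 1128 for the interaction. Without the 4 arrays that stand apart, 1594 were lower and 1710 passed the interaction test, and with array weights these were 1693 and 2273. In arrays without Y-linked transcripts, 846 were higher, 494 lower and 370 passed the interaction test, and in arrays with them and without Xist 752, 328 and 242; both hold fewer arrays, and 42 and 55 named genes lost the call there. An adjusted p of 0.01 left 583 lower and 599 for the interaction, and a difference of at least 1 left 338 higher, 93 lower and 402. Whether same-numbered arrays of the CD25- populations are paired is not given by the labels, and these values cannot settle it. Their deviations correlated from -0.065 to 0.334, 4 of 7 above 0.1, and 1 of 7 arrays correlated best with its own number. Replicates 2 and 5 differed between the populations in Y-linked transcripts. With the replicate block, 1463 genes were higher, 958 lower and 985 passed the interaction test. Genes below a signal of 6.50 are in the range of absent transcripts: 337 of the increases and 265 of the decreases were there in both populations, and 257 and 107 in 1, so their size is not known.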
